A study of Mus musculus with 6 samples.

Results

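The genes described here are 37 genes of the integrated stress response and of one-carbon metabolism, chosen by name for what they are known to do, out of 24346 genes with a value in 6 libraries of whole-liver RNA-seq. They comprise the 4 eIF2 kinases, 3 genes of eIF2 and of its phosphatase, 4 transcription factors, 7 effectors of ATF4 and CHOP, 2 stress hormones, 4 enzymes of amino acid synthesis, 3 of serine synthesis, 4 mitochondrial and 4 cytosolic folate genes and 2 genes of transsulfuration. All 37 were in the table and 36 passed a filter at a mean of 0.5 FPKM (fragments scaled to transcript length and to the library, a level per length) over the 6 libraries. *Stc2*, which encodes the secreted glycoprotein stanniocalcin 2, did not pass, with 0.0509 to 0.30 FPKM across the libraries.

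The integrated stress response starts with kinases that sense stress in the endoplasmic reticulum, heme shortage, double-stranded RNA or a lack of amino acids and phosphorylate the translation factor eIF2. Most protein synthesis then slows, while the mRNA of the transcription factor ATF4 is translated more, and ATF4 with CHOP and partners switches on genes of amino acid uptake and synthesis. One-carbon metabolism takes carbon units from serine through folate in mitochondria and cytosol to purines, thymidylate and methionine, and the liver is one of its main sites.

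The comparison is between 2 groups of 3 libraries, each spoken of here as a liver. Control mice (labelled wt) were *med23* f/f, with a floxed gene for subunit 23 of Mediator, a cofactor complex of transcription, and the others (labelled med23 ko) were *med23*Δli, made by crossing *med23* f/f with *Albumin*-cre mice so that deletion is driven in hepatocytes. All libraries came from male C57/BL6 mice of 8 weeks, injected intraperitoneally with 0.6 μl/g body weight of the liver toxin CCl4 in sunflower oil and killed 24 hours later. Uninjected livers were not analysed here, so every difference is one between 2 injected groups. For this time the paper reports substantial necrosis in control livers but hardly any in *med23*Δli livers. It also reports fewer dying cells and lower serum markers of liver damage in the latter. Genotype and extent of injury therefore cannot be told apart here, and the part of injury in the differences was not tested. The labels number the libraries of a group but do not tie each one to an animal, so p-values measure the spread between these samples.

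*Med23* itself was at 3.42, 2.97 and 4.14 FPKM in the controls and at 3.40, 3.40 and 2.91 FPKM in the med23 ko-labelled livers (log2 difference -0.11 ± 0.17 (SE), adjusted p = 0.685 in limma). The values cover the whole gene and all liver cells, and on them the groups overlapped, so the labels could not be checked from this gene. The 10 most abundant genes took 17.1% to 20.3% of all FPKM in the controls and 11.9% to 13.7% in the med23 ko-labelled livers. Control 2 correlated at 0.969 and 0.953 with the other controls on the log2 scale. The 6 hepatocyte markers summed to 23724 to 33144 FPKM in the controls and 19987 to 26661 FPKM in the med23 ko-labelled livers, *Alb* making up most of the sum. By gene their median log2 difference was 0.01 and 1 of the 6, *Cyp2e1*, passed, as higher. Of all genes tested 11.6% were higher and 9.48% lower, shares that stand beside this count and the counts of markers that follow. All 5 endothelial markers (*Clec4g*, *Lyve1*, *Stab2*, *Kdr* and *Pecam1*) fell, their sum being 73.6 to 110 FPKM in the controls against 38.5 to 41.4 FPKM. *Lyve1* lost its call in 4 of 15 alternatives (adjusted p = 0.0539 without filtering on low values, 0.0643 without control 2, 0.0876 and 0.0971 without the first and the third med23 ko-labelled liver). None of the 6 macrophage, 4 neutrophil and 4 cholangiocyte markers tested passed, 1 of 5 stellate cell markers fell (*Des*), and the T and B cell markers lay under the filter. Their part in the results below was not tested, and in whole liver fewer cells of a type and less RNA per cell cannot be told apart.

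ATF4 acts with C/EBP partners on C/EBP-ATF response elements, here searched on both strands as TGATGNAA in the RefSeq promoter windows of GRCm38.p6, from 250 bases before to 50 bases after each start. Windows were held for 33 of the 37 genes, and for *Cth*, *Aldh1l2*, *Eif4ebp1* and *Ppp1r15b* none was used. Matches lay in windows of 7 of the 33 genes (21.2%), against 4.51% of the 27025 genes with a window. The stretches of all 7 genes are printed, since 4 of these genes are among those called below. Each reads 5′ to 3′ on the gene's strand with the match in capitals, the reverse complement of the motif where it starts with TT.
Nupr1, chr7:126625562-126625591, minus strand: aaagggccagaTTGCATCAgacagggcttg
Vldlr, chr19:27216809-27216838, plus strand: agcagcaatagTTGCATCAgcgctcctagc
Chac1, chr2:119351038-119351067, plus strand: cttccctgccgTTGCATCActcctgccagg
Trib3, chr2:152344028-152344057, minus strand: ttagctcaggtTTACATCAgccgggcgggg
Fgf21, chr7:45615611-45615640, minus strand: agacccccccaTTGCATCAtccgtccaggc
Asns, chr6:7693214-7693243, minus strand: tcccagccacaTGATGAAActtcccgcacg
Pycr1, chr11:120643833-120643862, minus strand: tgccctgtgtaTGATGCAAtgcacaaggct
In *Asns*, *Nupr1* and *Vldlr* the match lay inside an annotated exon of the same gene, counted over all of its transcripts. The longer motif TGATGNAAT, which contains the first, was in 3 of the 33 genes (9.09%; *Nupr1*, *Fgf21* and *Pycr1*) against 1.08% of all genes with a window. CCACG, a core bound by ATF6 and other factors of the unfolded protein response, was in 20 of the 33 (60.6%) against 35.5%. A match is a description of letters and says nothing of binding.

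Among the 36 genes tested, 11 were higher and 1 was lower in the med23 ko-labelled livers than in the controls, in a limma fit of log2(FPKM + 0.1) over all genes with Benjamini-Hochberg adjusted p under 0.05. That is 30.6% higher and 2.78% lower, while of 11956 genes in the fit 11.6% were higher and 9.48% were lower. The counts of the small groups of genes below stand beside the same shares, and 1 call in such a group is no result about the group. The genes that rose were *Aldh1l2*, *Nupr1*, *Vldlr*, *Pycr1*, *Cth*, *Ppp1r15a*, *Asns*, *Eif4ebp1*, *Gdf15*, *Cebpg* and *Phgdh*, and *Gpt2* fell. More than 2-fold, 8 rose (4.45% of all genes did) and 1 fell (3.45% of all genes). The 3 libraries of each group did not overlap for 14 genes that were higher (38.9%, against 23.3% of all genes) and for 2 that were lower (5.56%, against 20.4%). The median log2 difference was 0.36 over the 36 genes and 0.02 over all genes tested. The count of 11 was 6 without the first and 7 without the third med23 ko-labelled liver, and 13 without control 2, while the share of all genes called higher went from 11.6% to 3.32%, 4.63% and 8.61%.

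**Figure D1:**
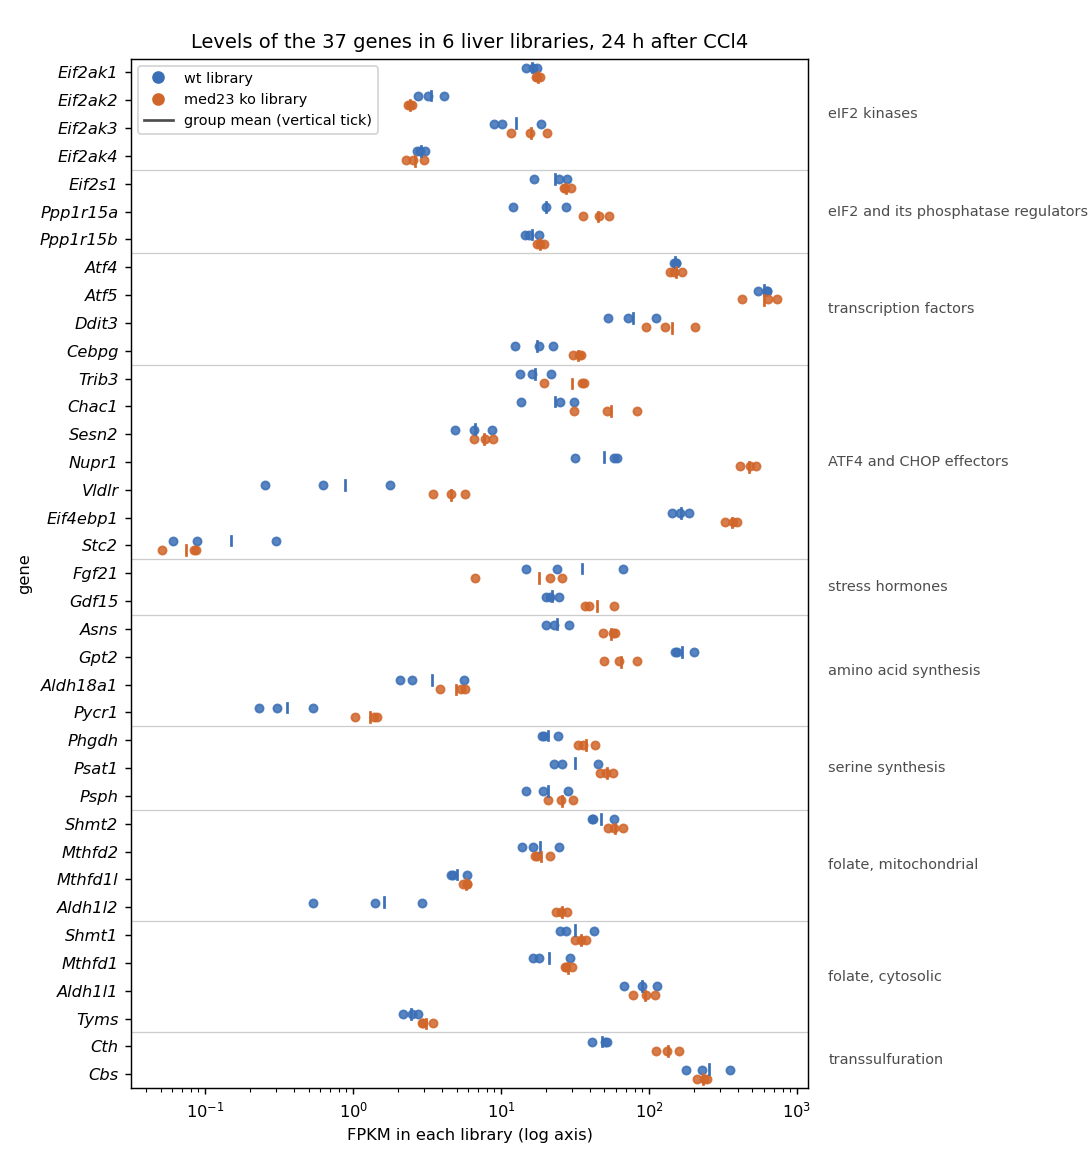
FPKM of each of the 37 genes in each of the 6 libraries on a log axis, with blue points for wt, orange points for med23 ko and a vertical tick at each group's mean. The separation is widest for Aldh1l2, at 0.539 to 2.90 FPKM in wt and 23.4 to 28.1 FPKM in med23 ko, while the points of Atf4 lie between 138 and 167 FPKM in both groups.

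None of the 4 eIF2 kinases passed the test. *Eif2ak1*, the heme-regulated kinase HRI, was at 17.4, 14.8 and 16.3 FPKM in the controls and 18.2, 17.6 and 17.1 FPKM in the med23 ko-labelled livers (log2 difference 0.13 ± 0.12, adjusted p = 0.473, limma). *Eif2ak3*, the kinase PERK of the endoplasmic reticulum, was at 10.1, 9.01 and 18.7 FPKM and at 15.8, 20.6 and 11.7 FPKM (0.38 ± 0.31, adjusted p = 0.390, limma). For both genes the groups overlapped.
*Eif2ak4*, the kinase GCN2 that responds to uncharged tRNA, was at 3.07, 2.71 and 2.82 FPKM in the controls and 2.27, 3.02 and 2.55 FPKM in the others (-0.14 ± 0.17, adjusted p = 0.577, limma). *Eif2ak2*, the kinase PKR that responds to double-stranded RNA, was at 4.14, 3.19 and 2.75 FPKM and at 2.49, 2.41 and 2.36 FPKM. It was the single kinase whose groups did not overlap, every med23 ko-labelled liver being below every control, but its difference did not pass (-0.44 ± 0.18, adjusted p = 0.123, limma). RNA levels carry no measure of kinase activity or of eIF2 phosphorylation.

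Of the 3 genes around eIF2, 1 rose. *Ppp1r15a* (GADD34; chromosome 7, 45522916 to 45526268 in mm10), the inducible subunit that brings a phosphatase to eIF2, was at 20.2, 12.1 and 27.6 FPKM in the controls and 46.1, 35.5 and 53.9 FPKM in the med23 ko-labelled livers. The groups did not overlap and the log2 difference was 1.23 ± 0.30 (adjusted p = 0.0254, limma), a call that was lost without low-value filtering (adjusted p = 0.0522) and without control 1 or the first or the third med23 ko-labelled liver (adjusted p = 0.0613, 0.0846 and 0.0969), its range over 15 alternatives being 0.00943 to 0.0969. The constitutive counterpart *Ppp1r15b* had means of 16.1 and 18.4 FPKM (0.20, adjusted p = 0.317, limma). *Eif2s1*, the eIF2 subunit that is phosphorylated, had means of 23.2 and 27.7 FPKM (0.29, adjusted p = 0.317, limma).

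Of the 4 transcription factors, 1 rose. *Atf4* (chromosome 15, 80255184 to 80257541), controlled to a large part by translation, was at 148, 152 and 153 FPKM in the controls and 167, 138 and 149 FPKM in the med23 ko-labelled livers. Its means were 151 ± 2.66 and 151 ± 14.8 FPKM (SD, n = 3), with a log2 difference of 0.00 ± 0.13 (adjusted p = 0.990, limma). The sign of so small a difference turned with other scalings of the libraries.
*Cebpg*, a C/EBP partner of ATF4, was at 18.1, 12.3 and 22.4 FPKM in the controls and 30.5, 34.9 and 33.8 FPKM in the others. It rose (0.95 ± 0.21, adjusted p = 0.0208, limma) with no overlap between the groups, and lost the call without any 1 of the med23 ko-labelled livers (adjusted p = 0.0642, 0.0774 and 0.0759, within a range of 0.00775 to 0.0774 over 15 alternatives).
*Ddit3*, which encodes CHOP, was at 71.7, 111 and 53.0 FPKM and at 127, 94.8 and 204 FPKM. Its second med23 ko library lay below control 2, and the difference did not pass (0.85 ± 0.34, adjusted p = 0.106, limma). *Atf5*, another stress-induced factor that is abundant in liver, had the highest level among the 37 genes, with means of 603 ± 46.9 and 600 ± 159 FPKM (SD, n = 3; -0.04, adjusted p = 0.904, limma).

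Effectors of ATF4 and CHOP held some of the widest differences, 3 of the 6 tested having risen and 0 having fallen, beside 11.6% and 9.48% of all genes. *Nupr1* (chromosome 7, 126623249 to 126630861), a small stress-induced chromatin-associated protein, was at 57.9, 31.7 and 60.3 FPKM in the controls and 411, 527 and 481 FPKM in the med23 ko-labelled livers. The lowest of the latter was above the highest control by a wide margin, the means being 50.0 ± 15.9 and 473 ± 58.6 FPKM (SD, n = 3), a ratio of 9.47. Its log2 difference was 3.29 ± 0.25 (adjusted p = 0.000771, limma), and it passed under all 15 alternatives.
*Vldlr* (chromosome 19, 27216484 to 27254231), a lipoprotein receptor, was at 0.625, 0.255 and 1.76 FPKM in the controls and 5.67, 3.44 and 4.62 FPKM in the others. It rose by 2.55 ± 0.54 log2 units (adjusted p = 0.0170, limma), a size that depends on the pseudocount at such low levels (1.63 with a pseudocount of 1). The call was lost without control 1 or the first or the third med23 ko-labelled liver (adjusted p = 0.0534, 0.0659 and 0.0670; range 0.00267 to 0.0670 over 15 alternatives).
*Eif4ebp1*, the translation repressor 4E-BP1, was at 143, 161 and 187 FPKM and at 368, 393 and 327 FPKM. The groups were far apart and it rose by 1.15 ± 0.15 log2 units (adjusted p = 0.00403, limma).

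*Chac1*, which degrades glutathione, was at 13.6, 30.9 and 25.0 FPKM in the controls and 82.8, 31.2 and 51.9 FPKM in the med23 ko-labelled livers. These did not overlap, by a narrow gap between control 2 and the second med23 ko library, and the difference did not pass (1.22 ± 0.40, adjusted p = 0.0620, limma). *Trib3*, a pseudokinase that restrains ATF4 and CHOP, was at 13.3, 21.6 and 16.1 FPKM and at 35.1, 19.4 and 36.1 FPKM (0.80 ± 0.27, adjusted p = 0.0729, limma). For *Trib3* the second med23 ko library again stood below control 2, and without that library both *Trib3* and *Chac1* passed. *Sesn2*, an inhibitor of mTORC1 signalling, had means of 6.71 and 7.72 FPKM (0.23, adjusted p = 0.482, limma).

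Of the 2 stress hormones, 1 rose. *Gdf15* (chromosome 8, 70629393 to 70632456), a hormone that acts on the hindbrain to lower food intake, was at 20.0, 24.5 and 21.4 FPKM in the controls and 36.7, 39.2 and 57.8 FPKM in the med23 ko-labelled livers. It rose by 0.99 ± 0.19 log2 units (adjusted p = 0.0130, limma) without overlap. *Fgf21*, a fasting and stress hormone of the liver, was at 14.8, 67.1 and 23.8 FPKM and at 25.9, 21.4 and 6.65 FPKM. Control 2 was the highest and the third med23 ko library the lowest, and the difference did not pass (-0.89 ± 0.64, adjusted p = 0.338, limma).

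**Figure D2:**
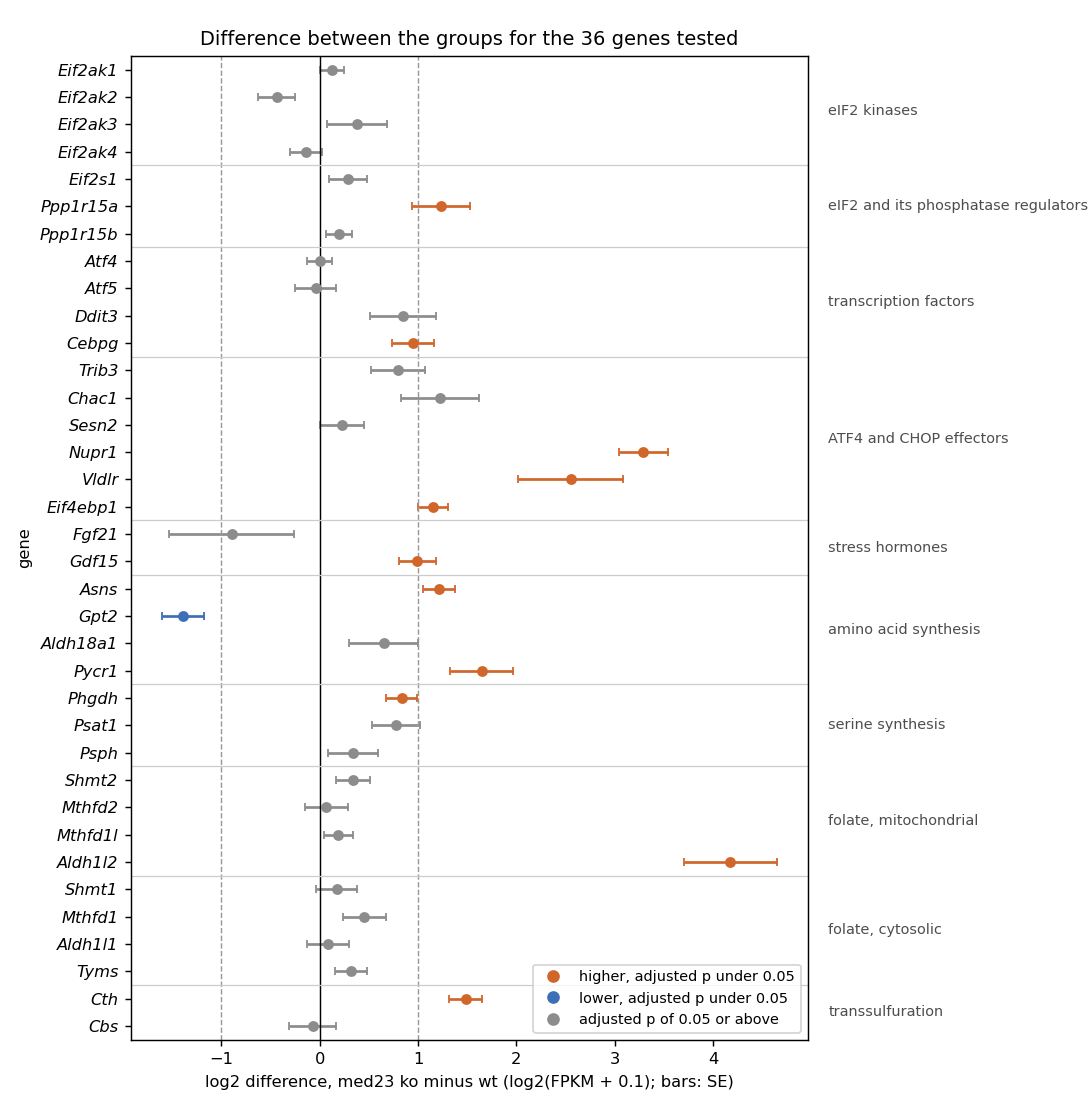
Fitted log2 difference, med23 ko minus wt, of the 36 genes tested, with bars of 1 SE and dashed lines at a 2-fold difference in either direction. Orange points (higher, 11 genes) and the blue point (lower, Gpt2) have an adjusted p under 0.05 and grey points do not, the grey ones including all 4 eIF2 kinases, Atf4 and Ddit3.

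Amino acid synthesis held both directions. *Asns* (chromosome 6, 7675169 to 7693254), asparagine synthetase and a classic ATF4 target, was at 22.7, 28.7 and 20.1 FPKM in the controls and 57.1, 58.6 and 49.1 FPKM in the med23 ko-labelled livers, and rose by 1.21 ± 0.16 log2 units (adjusted p = 0.00445, limma). *Gpt2* (chromosome 8, 85492576 to 85527560), the mitochondrial alanine aminotransferase, was at 150, 200 and 154 FPKM and at 62.2, 83.5 and 49.4 FPKM. It was the gene of the 36 that fell (-1.39 ± 0.21, adjusted p = 0.00657, limma), with every med23 ko-labelled liver below every control.
*Pycr1*, the mitochondrial enzyme of the last step of proline synthesis, was at 0.231, 0.305 and 0.538 FPKM in the controls and 1.39, 1.02 and 1.46 FPKM in the others. At these low levels its rise of 1.65 ± 0.32 log2 units (adjusted p = 0.0134, limma) shrank to 0.76 with a pseudocount of 1, and the call was lost without the first or the third med23 ko-labelled liver (adjusted p = 0.0623 and 0.0560; range 0.00604 to 0.0623 over 14 alternatives). *Aldh18a1*, which starts proline synthesis from glutamate, had means of 3.40 and 4.97 FPKM, control 2 being within the range of the other group (0.65, adjusted p = 0.212, limma).

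In serine synthesis 1 of 3 enzymes rose. *Phgdh* (chromosome 3, 98313170 to 98339990), the first enzyme, which also has a processed pseudogene copy, was at 19.4, 19.0 and 24.2 FPKM in the controls and 43.1, 35.6 and 33.3 FPKM in the med23 ko-labelled livers (0.84 ± 0.16, adjusted p = 0.0120, limma). Its groups did not overlap, and the call was lost only without the first med23 ko-labelled liver (adjusted p = 0.0596; range 0.00718 to 0.0596 over 15 alternatives). The next enzyme, *Psat1*, was at 23.0, 45.2 and 26.0 FPKM and at 56.8, 51.3 and 46.7 FPKM. Here too the groups did not overlap, with control 2 close below the other group, and the difference fell short of the threshold (0.78 ± 0.25, adjusted p = 0.0581, limma). *Psph*, the last enzyme, had means of 20.8 and 25.6 FPKM (0.34, adjusted p = 0.363, limma).

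Of the 4 mitochondrial folate genes, *Aldh1l2* (chromosome 10, 83487450 to 83534140) rose and the others did not pass. It encodes the mitochondrial 10-formyltetrahydrofolate dehydrogenase, which releases the carbon unit as CO2 with formation of NADPH. It was at 1.4, 0.539 and 2.90 FPKM in the controls and 28.1, 23.4 and 25.5 FPKM in the med23 ko-labelled livers, means of 1.61 ± 1.20 and 25.7 ± 2.35 FPKM (SD, n = 3). Its log2 difference of 4.18 ± 0.48 (adjusted p = 0.00275, limma) was the widest of the 36, and stayed between 3.45 and 4.71 over 15 alternatives. On the opposite strand *D10Wsu102e* shares 1056 of its exon bases (14.1%), and the library kit does not mark strand, so reads from that stretch cannot be told apart. *D10Wsu102e* had means of 15.1 and 10.8 FPKM, with a difference of the other sign that did not pass (-0.49, adjusted p = 0.0765, limma). It was lower in every med23 ko-labelled liver than in every control, and of the 15 alternatives it passed only with quantile normalization (-0.52, adjusted p = 0.0466, limma). Genes on the opposite strand also share 8.05% to 11.4% of the exon bases of *Eif2ak1*, *Eif2ak3*, *Ppp1r15b*, *Psph* and *Aldh1l1*.
*Shmt2*, which takes the carbon unit from serine in mitochondria, had means of 47.2 and 59.3 FPKM (0.34, adjusted p = 0.192, limma). *Mthfd2*, a mitochondrial dehydrogenase and cyclohydrolase well known as an ATF4 target, was at 13.9, 24.5 and 16.3 FPKM and at 17.6, 17 and 21.3 FPKM, the groups overlapping in full (0.07, adjusted p = 0.849, limma). *Mthfd1l*, the mitochondrial formate-releasing synthetase, had means of 5.06 and 5.75 FPKM (0.19, adjusted p = 0.380, limma).

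None of the 4 cytosolic folate genes passed. *Shmt1* had means of 31.6 and 34.8 FPKM (0.17, adjusted p = 0.569, limma), and *Mthfd1*, the trifunctional synthase, of 21.2 and 28.2 FPKM (0.45, adjusted p = 0.166, limma). *Aldh1l1*, the cytosolic counterpart of *Aldh1l2*, was at 89.6, 113 and 67.8 FPKM and at 78.2, 95 and 110 FPKM (0.08, adjusted p = 0.801, limma). *Tyms*, thymidylate synthase, was at 2.74, 2.19 and 2.51 FPKM and at 3.44, 2.92 and 2.97 FPKM, higher in each med23 ko-labelled liver, without passing (0.32, adjusted p = 0.186, limma).

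Mitochondrial and cytosolic counterparts were then compared within each library. The level of *Aldh1l2* was 0.479% to 4.28% of that of *Aldh1l1* in the controls and 23.3% to 36% in the med23 ko-labelled livers, a log2 difference of the ratio of 4.09 without overlap (exact two-sided permutation p = 0.1, the smallest that 3 against 3 allows; 0.4 adjusted over the 4 pairs). For *Shmt2* over *Shmt1* the difference was 0.16 (exact permutation p = 0.8, adjusted 0.8). *Mthfd2* over *Mthfd1* differed by -0.39 and *Mthfd1l* over *Mthfd1* by -0.26 (exact permutation p = 0.4 each, adjusted 0.533), with overlapping groups. With 1 library left out these differences ran from -0.15 to 0.41, from -0.82 to -0.06 and from -0.56 to -0.05, and that of *Aldh1l2* over *Aldh1l1* from 3.34 to 4.82. The sign for *Shmt2* over *Shmt1* turned without control 1. These 3 ratios varied more between the controls, with SDs of 0.54 to 0.78, than between the med23 ko-labelled livers, with SDs of 0.08 to 0.24; the difference in spread was not tested.

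**Figure D3:**
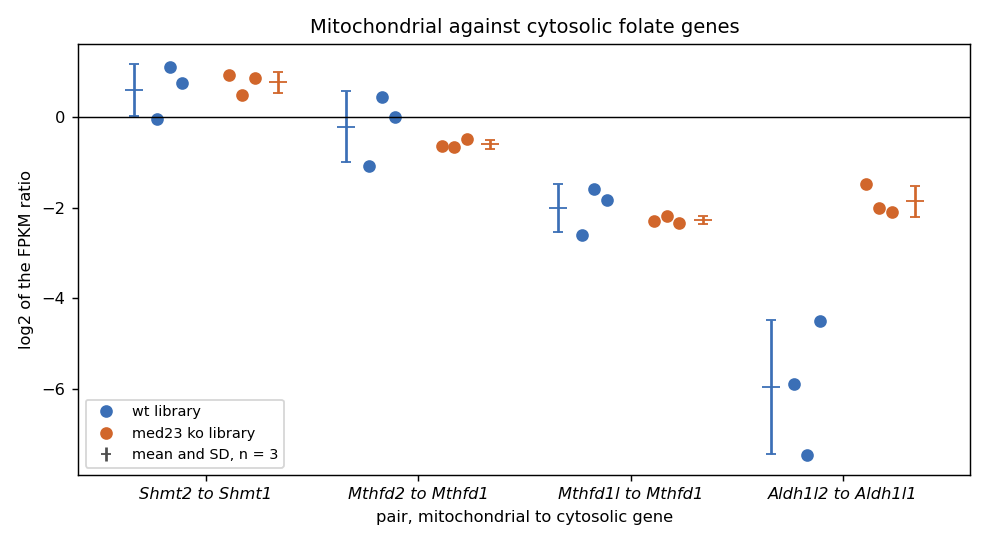
Log2 of the FPKM ratio of a mitochondrial to a cytosolic folate gene in each library (points), with mean and SD of each group of 3. The groups overlap for 3 pairs and are apart for Aldh1l2 to Aldh1l1, with means of -5.95 in wt and -1.86 in med23 ko.

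Of the 2 genes of transsulfuration, which turns homocysteine into cysteine, 1 rose. *Cth* (chromosome 3, 157894248 to 157925077), the second enzyme, was at 52.0, 50.4 and 41.2 FPKM in the controls and 133, 112 and 160 FPKM in the med23 ko-labelled livers. It rose by 1.48 ± 0.17 log2 units (adjusted p = 0.00276, limma), each med23 ko-labelled liver being more than 2-fold above each control. *Cbs*, the first enzyme, was at 354, 178 and 227 FPKM and at 237, 246 and 212 FPKM, with control 1 the highest (-0.07, adjusted p = 0.857, limma).

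The libraries of a group also differed among themselves in a way shared by several genes. Control 2 was the highest control for 15 of the 36 genes (41.7%, against 31.3% of all genes tested), among them *Ddit3*, *Trib3*, *Chac1*, *Sesn2*, *Fgf21*, *Asns*, *Psat1*, *Psph*, *Shmt2* and *Mthfd2*. It was the lowest control for 13 (36.1%, against 39.9%), among them *Ppp1r15a*, *Cebpg*, *Nupr1*, *Vldlr*, *Phgdh* and *Aldh1l2*. In the other group the second library was the lowest for 18 of 36 genes (50%, against 24.2% of all genes tested). That library alone held the adipocyte genes *Ucp1* and *Plin1*, at 2.29 and 2.76 FPKM and at 0 in the other 5, and held *Adipoq* at 5.65 FPKM, the other 5 being at 0.0907 FPKM or at 0; their part in its lower values was not tested. The remaining gene of the adipocyte list, *Cidec*, was present in all 6 libraries and fell (-3.24, adjusted p = 0.0161, limma). It was at 19.2 to 77.6 FPKM in the controls, where *Adipoq*, *Ucp1* and *Plin1* were at 0, so its fall is not read as one of adipocytes. For several genes that did not pass, the range within at least 1 group was wider than the difference between the group means. Among them were *Ddit3*, *Trib3*, *Fgf21*, *Chac1*, *Psat1*, *Eif2ak3* and *Atf5*.

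**Figure D4:**
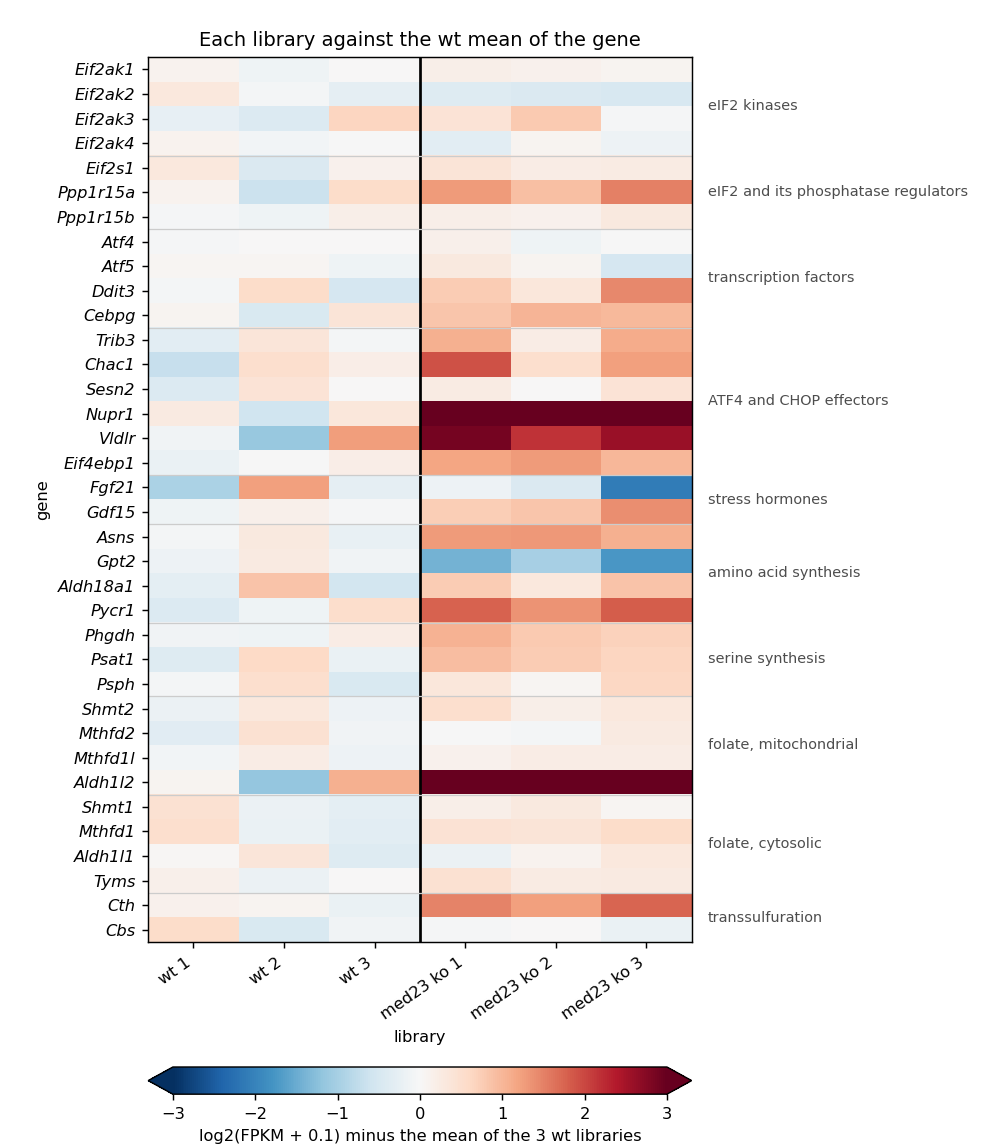
Log2(FPKM + 0.1) of the 36 genes tested in each library minus the mean of the 3 wt libraries, red for higher and blue for lower, with colours ending at 3 log2 units. The 3 med23 ko columns are red for Nupr1, Vldlr and Aldh1l2 and blue for Gpt2, and wt 2 is red for Fgf21, Ddit3, Trib3 and Chac1 but blue for Nupr1, Vldlr and Aldh1l2.

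Beyond these genes, 35 other known ATF4 targets were tested, and 13 rose and 1 fell (37.1% and 2.86%, beside 11.6% and 9.48% of all genes; median log2 difference 0.46). *Slc7a11*, the cystine importer, was at 0.378, 0.347 and 0.761 FPKM in the controls and 6.92, 2.04 and 8.17 FPKM in the med23 ko-labelled livers (3.13 ± 0.51, adjusted p = 0.0078, limma). *Bbc3*, which encodes the death-promoting protein PUMA, rose from 2.63 ± 0.69 to 9.44 ± 0.29 FPKM (SD, n = 3; 1.84, adjusted p = 0.00237, limma), and *Slc6a9*, a glycine transporter, from 23.7 ± 2.67 to 66.7 ± 8.51 FPKM (1.48, adjusted p = 0.00177, limma). The gene that fell, named after its values were seen, was *Herpud1*, a component of protein disposal from the endoplasmic reticulum, from 420 ± 92.6 to 157 ± 20.8 FPKM (-1.41, adjusted p = 0.0046, limma). The count of 13 was 5 without the first med23 ko-labelled liver, 8 without the second, without the third or without control 1, and 16 without control 3. The share of all genes called higher was 3.32%, 4%, 4.63%, 9.19% and 14.4% in those fits.

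Of the 12 other genes of eIF2, of its exchange factor eIF2B and of their regulators, 1 rose and 3 fell, beside 11.6% and 9.48% of all genes. *Impact*, an inhibitor of GCN2, rose from 12.6 ± 6.79 to 26.6 ± 2.99 FPKM (SD, n = 3; 1.22, adjusted p = 0.0479, limma). *Eif2b4*, *Eif2b3* and *Eif2b1*, subunits of eIF2B, fell by 0.67, 0.56 and 0.49 on the log2 scale (adjusted p = 0.0386, 0.0161 and 0.0224, limma), the last named after its values were seen. All 3 of the latter calls were lost without any 1 med23 ko-labelled liver, and that of *Impact* was lost in 10 of 15 alternatives. Of 15 other folate genes tested, *Ggh*, a folate hydrolase, rose by 0.94 log2 units, while *Ftcd*, which passes carbon units from histidine to folate, and *Gart*, of purine synthesis, fell by 0.84 and 0.53 (adjusted p = 0.0268, 0.0285 and 0.0305, limma). That count of 1 higher and 2 lower is near the share over all genes, 11.6% and 9.48%. None of these 3 calls held without the first, the second or the third med23 ko-labelled liver.

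**Figure D5:**
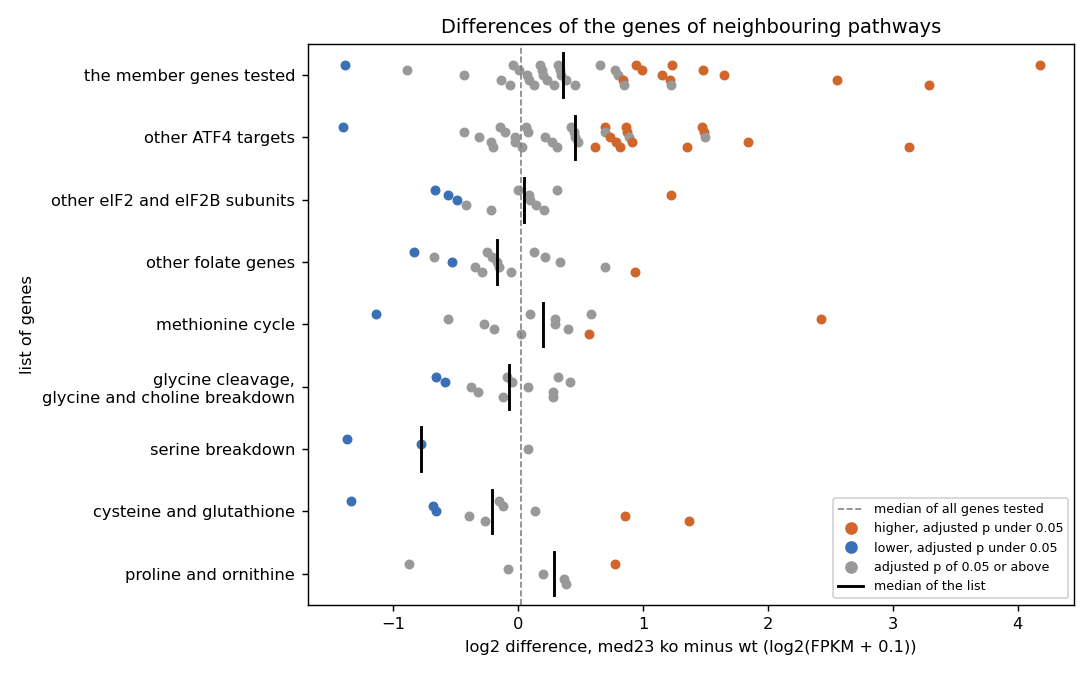
Fitted log2 difference, med23 ko minus wt, of each tested gene of 9 lists, with a black tick at each list's median and a dashed line at the median of all genes tested (0.02). The median is 0.36 for the 36 genes and 0.46 for other ATF4 targets, against 0.04 for other eIF2 and eIF2B subunits and -0.17 for other folate genes.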

How the data were processed

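Whole-liver RNA labelled wt (3 libraries) or med23 ko (3 libraries) was read as paired 150-bp TruSeq v2 libraries. The authors trimmed adapters, aligned with TopHat to mm10 and deposited FPKM from Cuffdiff per gene and library, and the versions, annotation and normalization options are not given in the sources used here. The deposited table also holds group means, fold changes, test statistics and p-values of the authors' comparison, which were not used. FPKM are not counts and their low values gave back no whole reads, so depth per library is unknown and no counting interval is given.

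After a filter at 0.5 FPKM on the average of the 6 libraries, 11956 of 24346 genes were fitted as log2(FPKM + 0.1) in limma 3.58.1 (R 4.3.3; eBayes with trend) on the 2 groups, with Benjamini-Hochberg adjustment over all of them and a call at 0.05. Fold changes are on that log2(FPKM + 0.1) scale, on which low genes appear less changed than they are. The script was tested on simulated data. Ratios used exact permutation tests in scipy 1.17.1. Positions are from GENCODE M21 (GRCm38). The genes and lists were chosen with earlier results of these data known, so they are no independent support. All 37 genes were to be accounted for, with values per library for those that passed, *Atf4*, *Ddit3* and the kinases, and up to 3 genes of each further list that passed; values per library of other genes were added after they were seen. Alternatives changed the pseudocount, filter, scaling and variance model, added a replicate block, or left out each library in turn. A gene of a further list is not reported here.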

Additional observations from a re-analysis of the deposited data

How the results depend on the processing

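The paper gives a median number of reads over the samples, but the depth of each library is unknown. No precision from counting can therefore be given, and each group has 3 libraries. Among the genes described here, the number higher in med23 ko was 11 and ranged from 6 to 13 when 1 library was left out, while the number lower stayed at 1. Over all genes the number higher was 1384 and ranged from 397 to 1723, and the number lower was 1133 and ranged from 343 to 1420. *Aldh1l2*, *Nupr1*, *Cth*, *Asns*, *Eif4ebp1*, *Gdf15* and *Gpt2* passed in all 15 alternatives. *Pycr1* could not be tested with a filter at 1 FPKM. Without control 2 *Aldh18a1* and *Psat1* passed as well, without control 1 *Mthfd1* did, and without the second med23 ko library *Trib3* and *Chac1* did. Differences near 0 turned their sign. That of *Atf4* (0.00) was -0.026 with median centring, -0.11 with quantile normalization and -0.072 to 0.066 with a library left out. That of *Aldh1l1* (0.08) was -0.047 with quantile normalization and -0.10 to 0.26 with a library left out. With a library left out, *Atf5* (-0.04) ranged from -0.21 to 0.19, *Mthfd2* (0.07) from -0.11 to 0.30, *Cbs* (-0.07) from -0.29 to 0.20 and *Med23* (-0.11) from -0.22 to 0.017. The cause was not tested. Quantile normalization moved the split of all genes from 1384 higher and 1133 lower to 1301 and 1351. Equal replicate numbers did not pair the libraries: their deviations correlated at -0.022, -0.046 and -0.124, and no library correlated best with its own number. With the replicate block, 11 of the genes were higher and 1 lower, as without it, and over all genes 809 were higher and 614 lower. With it 10 rather than 13 of the other ATF4 targets were higher and 2 rather than 3 genes of cysteine and glutathione lower, and among the further genes named the calls of the 3 eIF2B subunits, *Impact*, *Mat1a*, *Mat2b*, *Glyctk*, *Gldc* and *Gart* were lost with it.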

Other observations

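In the methionine cycle, 2 of 12 genes rose and 1 fell, near the share over all genes tested (11.6% higher and 9.48% lower), so the genes below are given as single values. *Bhmt*, which remethylates homocysteine with betaine, was at 63.6, 78.7 and 28.3 FPKM in the controls and 272, 286 and 285 FPKM in the med23 ko-labelled livers (log2 difference 2.43 ± 0.34, adjusted p = 0.00494, limma). *Mat1a*, the liver enzyme that makes S-adenosylmethionine, fell from 557 ± 171 to 251 ± 68.3 FPKM (SD, n = 3; -1.14, adjusted p = 0.0229, limma), and *Mat2b*, a regulatory subunit of the other such enzyme, rose by 0.57 log2 units (adjusted p = 0.0172, limma). *Bhmt* passed in all 15 alternatives, while both *Mat* calls were lost without the first or the third med23 ko-labelled liver, and that of *Mat2b* also without the second, that of *Mat1a* also without control 1.

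The lists below are small, and their counts stand beside 11.6% of all genes higher and 9.48% lower. Of the 3 genes of serine breakdown, the serine dehydratase genes *Sds* and *Sdsl* fell by 0.78 and 1.37 on the log2 scale (adjusted p = 0.0166 and 0.00973, limma), the first losing its call without the first or the third med23 ko-labelled liver. Of 10 genes of cysteine and glutathione, *Csad*, of taurine synthesis, and *Suox*, sulfite oxidase, rose by 1.37 and 0.85 log2 units (adjusted p = 0.0097 and 0.0153, limma), the call of *Suox* being lost without any 1 med23 ko-labelled liver. A further 3 fell, with *Gclc*, the rate-limiting enzyme of glutathione synthesis, at 373 ± 131 FPKM in the controls and 146 ± 41.5 FPKM in the other group (SD, n = 3; -1.34, adjusted p = 0.0175, limma). Without the first or the third med23 ko-labelled liver none of the 3 passed. Of 6 genes of proline and ornithine *Aldh4a1*, of proline breakdown, rose by 0.77 log2 units (adjusted p = 0.0172, limma), a call lost without any 1 med23 ko-labelled liver. Of 12 genes of glycine and choline breakdown, *Glyctk* and *Gldc* fell by 0.66 and 0.59 (adjusted p = 0.0388 and 0.0423, limma), calls lost in 8 of 15 alternatives each.

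Of 9 pericentral genes tested 3 rose, *Cyp1a2*, *Cyp2e1* and *Axin2*, and none fell, beside 11.6% and 9.48% of all genes. *Rhbg*, lower in every med23 ko-labelled liver, did not pass (-0.73, adjusted p = 0.101, limma), and the other 5 did not pass either. Of 10 periportal genes tested 3 fell and 0 rose, beside 9.48% and 11.6% of all genes, and 7 did not pass. One that fell was *Hal*, histidine ammonia-lyase, from 83.1 ± 31.5 to 29.2 ± 4.19 FPKM (SD, n = 3; -1.45, adjusted p = 0.0101, limma). *Aldh1b1*, higher in every med23 ko-labelled liver, did not pass (0.89, adjusted p = 0.107, limma).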
